A study of Rattus norvegicus with 6 samples.

Results

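A set of 10 genes of signalling through the transcription factor STAT5 were followed in the renal cortex of rats given the anti-inflammatory drug phenylbutazone. They are Cish, Socs1, Socs2, Socs3, Bcl6, Stat5a, Stat5b, Ghr, Prlr and Jak2, and all 10 were found among the symbols that RefSeq accessions gave to the array, on 17 of its 61537 non-control features. The genes were chosen by role and from measured values of this same contrast, in which Cish was already known to be low after phenylbutazone. Their differences between the groups are therefore given as a description, with no test.

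Renal cortex RNA came from 6 male Sprague-Dawley rats, bought at 5 weeks of age. The 3 phenylbutazone animals received 200 mg/kg/day for 4 weeks, and the 3 vehicle animals received corn oil over the same time. Each RNA was labelled with Cy3 and hybridised to an array of its own. Phenylbutazone arrays 1, 2 and 3 and vehicle array 3 lay on slide 2, while vehicle arrays 1 and 2 lay on slide 1 and were scanned on another day, so that vehicle 3 is the only vehicle array on the slide of the treated animals. The share of features well above background was 65.2% to 68.4% per array. With 3 arrays per group, precision is limited by their number. All 12 proximal tubule markers fixed for the check of the tissue were measured, and so were Nphs1 of podocytes, Umod of the thick limb and Aqp2 of the collecting duct. The median difference of the proximal tubule markers between the groups was 0.069 log2 units. Fewer cells of a type and less RNA per cell cannot be told apart in such bulk tissue.

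STAT5 is a latent transcription factor that sits downstream of cytokine receptors such as those for growth hormone (Ghr) and prolactin (Prlr). A bound receptor activates the kinase encoded by Jak2, which phosphorylates STAT5A and STAT5B; these dimerise, enter the nucleus and bind DNA at a palindromic core. Cish and Socs2 are classical genes induced by STAT5, and their products feed back on the receptors. Bcl6 encodes a repressor that binds cores resembling those of STAT5 and is itself repressed by STAT5 in rodent liver and in lymphocytes. The question put to the data was whether the induced genes (Cish, Socs2) and the repressed gene (Bcl6) stood apart in opposite directions.

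RefSeq promoter windows of the assembly GRCr8, 250 bases before to 50 bases after a gene start, were held for 9 of the 10 genes, in 10 windows; Socs2 had no entry. They are shown because the core motif TTCNNNGAA, which reads the same on both strands, marks the sequence that STAT5 dimers bind. The Cish window held 4 matches, spelled TTCCTGGAA, TTCTTGGAA, TTCTAGGAA and TTCCGGGAA. They began at -241, -230, -136 and -119 bases from the gene start. Of all 33469 windows held, 8.87% held at least 1 match and 2 held at least 4, the Cish window being 1 of those 2. The Socs1 window and 1 of the 2 Prlr windows held 1 match each, at -196 and -176 bases. The other 7 windows, among them that of Bcl6, held 0 matches, which says only that these letters are not in 300 bases. The Cish, Prlr and Bcl6 windows follow, 5′ to 3′ on the strand of the gene, with the matches in capitals. The positions are chr8:116850719-116851018 on the plus strand for Cish, chr2:60909409-60909708 on the plus strand for Prlr and chr11:90358503-90358802 on the plus strand for Bcl6.
Cish: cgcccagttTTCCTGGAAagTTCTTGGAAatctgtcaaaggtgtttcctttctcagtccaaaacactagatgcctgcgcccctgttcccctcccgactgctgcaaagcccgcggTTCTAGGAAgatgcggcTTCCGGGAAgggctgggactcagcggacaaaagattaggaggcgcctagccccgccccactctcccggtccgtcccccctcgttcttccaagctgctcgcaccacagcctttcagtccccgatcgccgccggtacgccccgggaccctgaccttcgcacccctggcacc
Prlr: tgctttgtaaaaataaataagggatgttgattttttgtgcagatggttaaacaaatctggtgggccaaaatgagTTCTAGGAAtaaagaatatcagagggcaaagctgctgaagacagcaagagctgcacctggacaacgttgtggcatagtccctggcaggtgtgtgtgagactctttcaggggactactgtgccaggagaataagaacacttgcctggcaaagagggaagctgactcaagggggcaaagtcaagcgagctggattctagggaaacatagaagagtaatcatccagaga
Bcl6: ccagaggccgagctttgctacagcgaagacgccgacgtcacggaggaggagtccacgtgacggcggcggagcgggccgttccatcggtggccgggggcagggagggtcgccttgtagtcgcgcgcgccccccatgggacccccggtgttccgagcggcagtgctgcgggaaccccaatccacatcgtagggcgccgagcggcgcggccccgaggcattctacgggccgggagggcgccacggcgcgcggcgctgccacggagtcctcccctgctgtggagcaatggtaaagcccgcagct

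**Figure D1:**
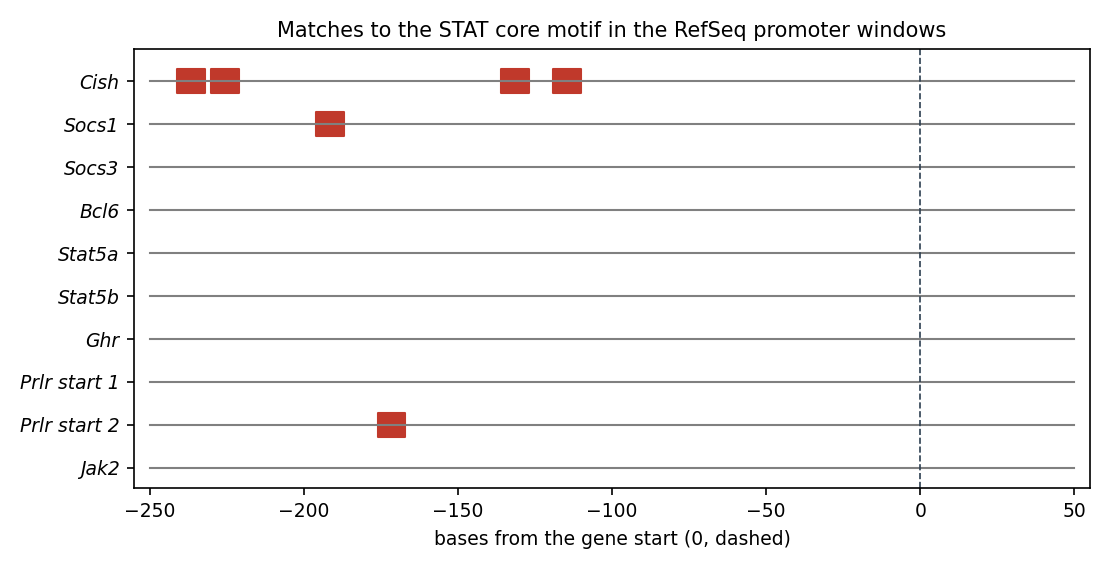
Matches to TTCNNNGAA (filled boxes) in 10 RefSeq promoter windows of 9 of the genes, along the distance in bases from the gene start (dashed line at 0). Cish carries 4 matches between -241 and -119 bases; Socs1 and the second Prlr start carry 1 each, and the other 7 windows carry 0.

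Cish and Bcl6 stood apart in opposite directions, and whether Socs2 followed Cish was not settled by these arrays. Cish was 3.63-fold lower and Bcl6 4.82-fold higher in phenylbutazone cortex, whereas Socs2 was 1.13-fold lower with groups that overlapped. Against vehicle 3, the only vehicle array on slide 2, all 3 treated animals lay lower in Socs2, with a difference of -0.64 log2 units. Receptors, kinase and both STAT5 genes differed by at most 1.43-fold over all arrays. Against vehicle 3, Stat5b stood at -0.96 and Prlr at -0.94 log2 units. All levels below are log2 of the processed intensity relative to the array's 75th percentile, and differences are phenylbutazone minus vehicle with a standard error of limma's fit over all genes (n = 3 per group). A gene with several features is given by its brightest.

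Among the induced genes, Cish encodes the cytokine-inducible SH2 protein, which binds phosphorylated receptors and damps STAT5 activation. Its levels were -1.18, -0.97 and -1.54 in phenylbutazone animals 1, 2 and 3, against 0.55, 0.51 and 0.83 in vehicle animals 1, 2 and 3. All phenylbutazone values lay below all vehicle values. The mean was -1.23 ± 0.29 in phenylbutazone and 0.63 ± 0.17 in vehicle (SD, n = 3 each), a difference of -1.86 ± 0.18 (SE). This was rank 22 from the lowest among the 29938 genes measured. The dimmer Cish feature gave the same separation, at -2.71, -2.40 and -2.92 in phenylbutazone animals against -1.18, -1.33 and -0.85 in vehicle animals, a difference of -1.56. Against vehicle 3 alone the brighter feature stood at -2.05.

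Socs2 encodes a subunit of a ubiquitin ligase that limits growth hormone signalling. Its levels were -4.19, -4.02 and -4.10 in phenylbutazone animals, against -4.18, -4.14 and -3.46 in vehicle animals. Vehicle 1 and 2 lay inside the narrow range of the treated animals, and vehicle 3 alone stood above it. The difference was -0.18 ± 0.21 over all arrays, -0.64 against vehicle 3 and 0.059 without vehicle 3, so that its direction rests on that array. Its intensities of 49.0 to 83.8 were well above background on all 6 arrays but near the lower end of the scale.

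Bcl6 encodes a zinc finger repressor best known from germinal centre B cells, and in liver it opposes STAT5 at shared genes. Its levels were 3.50, 2.81 and 3.44 in phenylbutazone animals, against 1.64, 1.26 and 0.05 in vehicle animals. All phenylbutazone values lay above all vehicle values, but vehicle 3 stood well below the other vehicle animals. The mean was 3.25 ± 0.38 in phenylbutazone and 0.98 ± 0.83 in vehicle (SD, n = 3 each), a difference of 2.27 ± 0.43, rank 25 from the highest of 29938. The second Bcl6 feature stood at -1.38, -2.01 and -1.47 in phenylbutazone animals against -3.60, -3.80 and -3.77 in vehicle animals. On that feature vehicle 3 lay between vehicle 1 and vehicle 2, and the difference was 2.10. Against vehicle 3 alone the brighter feature gave 3.20 and the dimmer one 2.15, and without vehicle 3 the brighter one gave 1.80. Phenylbutazone 2 had the highest Cish and the lowest Bcl6 of the treated animals, and vehicle 3 the highest Cish and, on the brighter feature, the lowest Bcl6 of the vehicle animals. The other animals went the other way: phenylbutazone 1 was above phenylbutazone 3 in both genes, and vehicle 1 above vehicle 2 in both. With 3 animals per group, no relation between the genes is read from this.

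**Figure D2:**
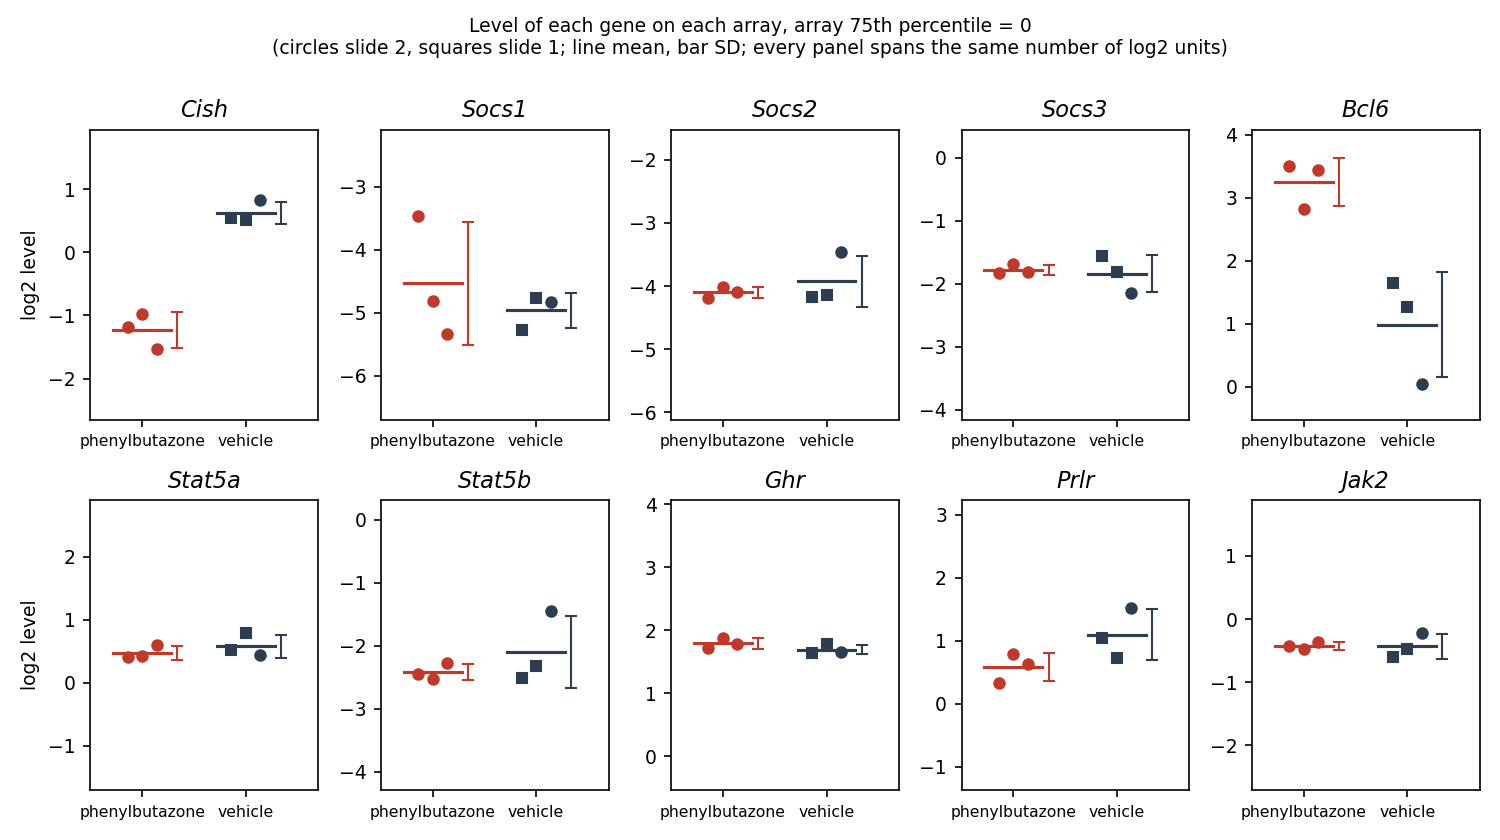
Log2 level of each of the 10 genes on each array, relative to the array's 75th percentile, in phenylbutazone animals (left, red) and vehicle animals (right, dark); circles mark slide 2, squares slide 1, lines the mean and bars the SD of 3 animals. Cish lies between -1.54 and -0.97 in phenylbutazone and between 0.51 and 0.83 in vehicle, Bcl6 between 2.81 and 3.50 in phenylbutazone and between 0.05 and 1.64 in vehicle, and the groups overlap in the other 8 genes.

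Socs1 and Socs3 encode further SH2-domain inhibitors, of which SOCS1 blocks the kinases directly after interferon and SOCS3 acts at the receptors of the IL-6 family. Socs3 stood at -1.83, -1.68 and -1.81 in phenylbutazone animals and at -1.57, -1.81 and -2.15 in vehicle animals, a difference of 0.067 ± 0.16. On this feature the treated animals lay inside the vehicle range, and without vehicle 3 it gave -0.086. Its second feature gave 0.16. Socs1 was dim, and 1 of its 3 vehicle values was not well above background. Its level was -3.46 in phenylbutazone 1, but -4.81 and -5.34 in phenylbutazone 2 and 3, against -5.28, -4.78 and -4.83 in vehicle animals. The difference of 0.42 ± 0.48 rests on phenylbutazone 1 and was -0.12 without it.

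The STAT5 genes lie next to each other in the rat genome and their proteins are close relatives. Stat5a stood at 0.41, 0.42 and 0.60 in phenylbutazone animals and at 0.52, 0.79 and 0.44 in vehicle animals, a difference of -0.10 ± 0.13, or 0.037 against vehicle 3. Stat5b stood at -2.45, -2.53 and -2.27 in phenylbutazone animals and at -2.52, -2.33 and -1.45 in vehicle animals, a difference of -0.32 ± 0.28. Groups overlapped in both, and for Stat5b vehicle 3 alone stood high. Its difference was -0.96 against vehicle 3 and 0.0056 without vehicle 3.

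Ghr, the growth hormone receptor gene, was carried by 4 features. The brightest read 1.71, 1.88 and 1.78 in phenylbutazone animals against 1.64, 1.78 and 1.66 in vehicle animals, a difference of 0.099 ± 0.099 that turned to -0.097 with normexp background correction. The other Ghr features gave 0.18, 0.14 and -0.10, so that they did not share a direction, and on the features at 0.18 and 0.14 the groups did not overlap. Prlr, the prolactin receptor gene, read 0.34, 0.79 and 0.63 in phenylbutazone animals against 1.04, 0.72 and 1.53 in vehicle animals. Only vehicle 2 lay inside the treated range. The Prlr difference was -0.52 ± 0.23, or -0.94 against vehicle 3 and -0.30 without it. Jak2, the kinase gene, read -0.43, -0.48 and -0.36 in phenylbutazone animals against -0.60, -0.48 and -0.22 in vehicle animals. The treated animals lay inside the vehicle range on this feature. Its difference was 0.010 ± 0.13, and its second feature gave -0.016.

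**Figure D3:**
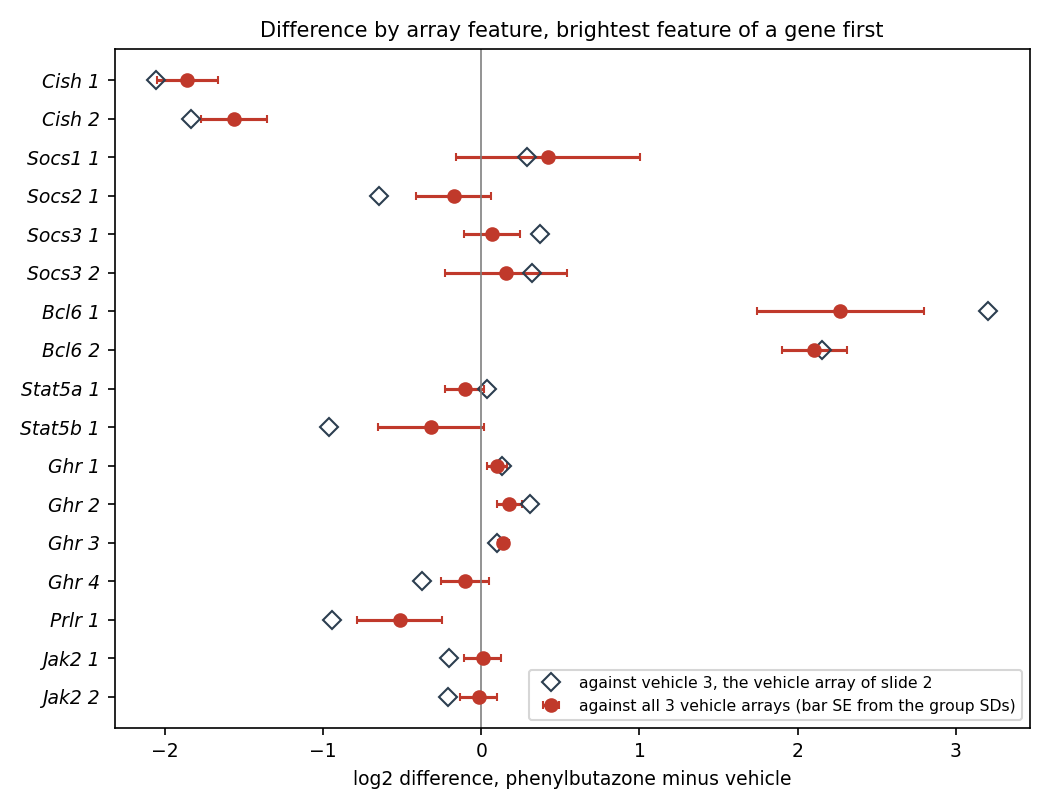
Log2 difference, phenylbutazone minus vehicle, of each of the 17 features, numbered within a gene from the brightest; filled circles set the treated animals against all 3 vehicle animals with the standard error from the group SDs, open diamonds against vehicle 3 alone. Both Cish features lie at -1.56 or below and both Bcl6 features at 2.10 or above, while Socs2, Stat5b and Prlr lie further below 0 against vehicle 3 than against all vehicle animals.

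Of the 10 genes, 1 (Bcl6) had all phenylbutazone values above all vehicle values, and 1 (Cish) had all below. Over the 29938 genes measured these shares were 12.1% and 9.39%, and since the genes were chosen on this contrast nothing is read from the counts. Of all genes 0 (0%) reached an adjusted p under 0.05 in limma, with 3657 at an unadjusted p under 0.05. An intensity trend in limma called 8 genes and leaving out vehicle 3 called 814, where slide and treatment cannot be told apart. Within slide 2, all 3 treated animals lay below vehicle 3 in 5 of the 10 genes (Cish, Socs2, Stat5b, Prlr and Jak2) and above it in 3 (Bcl6, Socs3 and Ghr). All 3 treated animals lay on 1 side of vehicle 3 in 72.6% of all genes, so that 8 of 10 is near the background.

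The pattern of Cish over the 6 arrays was set against that of all other genes with a symbol, by the root mean square difference of levels centred on each gene's mean. The nearest was Acsbg1, an acyl-CoA synthetase gene, at 0.163 log2 units. Its levels were 1.28, 1.38 and 1.19 in phenylbutazone animals against 2.84, 2.85 and 3.04 in vehicle animals. Next came the claudin gene Cldn22 at 0.421, Sdr42e1 at 0.424, Igfbp4, which encodes a binding protein of insulin-like growth factors, at 0.425 and the histamine receptor gene Hrh4 at 0.432. All 5 had lower values in every phenylbutazone animal than in any vehicle animal, with differences of -1.67 to -1.03. Being picked for likeness to Cish on the same arrays largely fixed this in advance, so it is no separate result. The same measure was later applied to Bcl6, where even the nearest genes lay at 0.564 to 0.615, and the same limit holds for their differences. Among them were Slc1a3, a glutamate transporter gene, at a difference of 1.75 ± 0.24, and Serpina3n, a serine protease inhibitor gene, at 2.86 ± 0.60. The other 3, Or9k2, Kel and Kcnk2, were well above background on 3 of 3 phenylbutazone arrays but on 0, 1 and 2 of 3 vehicle arrays. Serpina3n read 0.22, 0.50 and 1.28 in phenylbutazone animals against -2.04, -1.13 and -3.41 in vehicle animals.

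Other genes known from various tissues as STAT5 targets were on both sides of 0. Their list holds induced genes such as Igf1 and repressed ones such as Cux2. Its median and counts therefore cannot show whether targets moved in the direction set by STAT5. Of 29 listed, 24 were measured, with a median difference of 0.030 against 0.015 over all genes; 13 were higher, 11 lower and 0 passed the limma test. Mcl1, a survival gene of the BCL2 family, was higher in every treated animal, at 0.20 ± 0.12. Lower in every treated animal were Cux2, a homeobox gene repressed by STAT5 in male mouse liver, at -0.36 ± 0.15, the cytokine gene Osm at -0.28 ± 0.11 and the milk protein gene Csn2 at -0.21 ± 0.097. Igf1, the growth factor gene that growth hormone induces through STAT5, read 4.04, 3.35 and 2.37 in phenylbutazone animals against 3.72, 2.90 and 2.38 in vehicle animals. The Igf1 groups covered nearly the same range, with a difference of 0.25 ± 0.51. The kinase gene Pim1, another STAT5 target, stood at -0.19 ± 0.23.

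Genes repressed by BCL6 in human or mouse B cells were on both sides of 0. Of 17 listed, 13 were measured, 7 higher and 6 lower, with a median of 0.041 and 0 past the test. The oxysterol receptor gene Gpr183 (0.43 ± 0.17) and the cell cycle inhibitor gene Cdkn1b (0.29 ± 0.091) were higher in every treated animal. Id2, a gene for an inhibitor of helix-loop-helix factors, was lower in every one, at -0.30 ± 0.14.

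Upstream, 2 of 15 listed ligand genes were measured, Il15 at -0.0074 ± 0.14 and Gh1 at -0.060 ± 0.13. Of 16 other receptor genes 12 were measured, 8 higher and 4 lower, with a median of 0.070 and 0 past the test. The leptin receptor gene Lepr read -3.09, -2.57 and -2.41 in phenylbutazone animals against -3.35, -3.67 and -3.24 in vehicle animals, a difference of 0.73 ± 0.21. The interleukin 7 receptor gene Il7r at 0.66 ± 0.19, with 2 of 3 vehicle arrays well above background, and the granulocyte receptor gene Csf3r at 0.34 ± 0.15 were also higher in every treated animal. All 8 other JAK and STAT genes were measured, at -0.086 to 0.21, and 0 passed. The highest was Stat2, which was higher in every treated animal. Of 15 other negative regulators 11 were measured, with a median of -0.039 and 0 past the test. The phosphatase gene Ptpn11 (0.53 ± 0.16) and the STAT inhibitor gene Pias3 (0.37 ± 0.095) were higher in every treated animal, while Socs4, Socs5 and Socs6 lay at -0.23 to -0.040.

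Pathways that share Socs3 or Bcl6 with STAT5 gave the following. Of 18 listed genes of the IL-6 family and STAT3, 16 were measured, 14 higher and 2 lower, with a median of 0.41 against 0.015 over all genes and 0 past the test. The receptor genes Lifr (0.55 ± 0.11) and Il6st, which encodes the shared subunit gp130 (0.48 ± 0.15), were higher in every treated animal. Lifr read -0.16, -0.37 and -0.24 in phenylbutazone animals against -0.77, -0.70 and -0.95 in vehicle animals. Osmr (1.23 ± 0.36) and the fibrinogen gene Fgg (1.54 ± 0.59) were also higher in every one, each with 1 of 3 vehicle arrays well above background. Of 12 genes of insulin and FOXO control, which also induces Bcl6 in some cells, 11 were measured, with a median of 0.082 and 0 past the test. Igfbp1, a binding protein gene that FOXO1 induces, read 1.56, 3.11 and 2.75 in phenylbutazone animals against 0.63, 0.82 and 1.16 in vehicle animals, a difference of 1.60 ± 0.40. G6pc1, the glucose-6-phosphatase gene, at 0.50 ± 0.11 and the transcription factor gene Klf15 at 0.39 ± 0.10 were higher in every treated animal, and the insulin receptor substrate gene Irs2 was lower in every one, at -0.49 ± 0.19. Of 10 glucocorticoid response genes 9 were measured, with a median of 0.015 and 0 past the test.

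**Figure D4:**
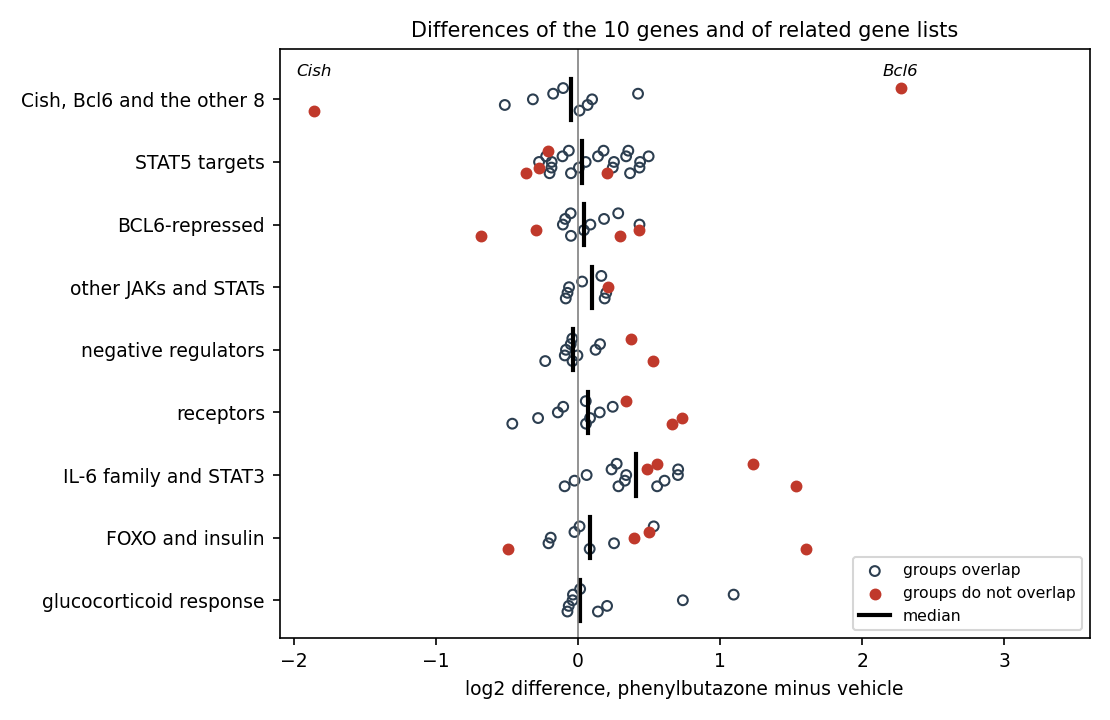
Log2 difference, phenylbutazone minus vehicle, of the 10 genes (top row) and of the measured genes of 8 related lists; filled points mark genes whose groups do not overlap, open points the others and bars the median. Cish and Bcl6 lie at -1.86 and 2.27, outside the range of -0.36 to 0.50 of the 24 STAT5 targets, and the IL-6 family and STAT3 list has a median of 0.41. The 10 genes were chosen with values of this contrast known.

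Markers of blood cells that could carry Bcl6 or Cish were read beside them. The 9 measured erythroid markers of 11 had a median difference of 0.46 against 0.015 over all genes, with 8 higher and 1 lower against 15806 higher and 14132 lower of all 29938 genes. Their summed level, relative to the 75th percentile, was 579 to 922 on phenylbutazone arrays and 494 to 677 on vehicle arrays. The 11 measured lymphocyte markers of 14 summed to 3.08 to 4.03 on phenylbutazone arrays and 3.02 to 4.44 on vehicle arrays, with a median difference of -0.039, 5 higher and 6 lower. The 10 measured myeloid markers of 11 summed to 74.7 to 99.7 on phenylbutazone arrays and 76.9 to 101.7 on vehicle arrays. Against vehicle 3 alone, the median difference was 0.52 for the erythroid, -0.45 for the lymphocyte and 0.16 for the myeloid markers. The part of blood cells in the differences of Cish and Bcl6 was not tested.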

How the data were processed

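The 6 arrays are one-colour Agilent expression arrays, read with Agilent Feature Extraction 10.7 per the submitters' processing notes. Per the file headers, the deposited processed intensity is background-subtracted and detrended with no scaling between arrays. A ratio fills the deposited value table; set against the scanner values it was the intensity over the array's 75th percentile, within 1% for 100% of the brighter features, with column medians of 0.105 to 0.110.

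Intensities were taken to log2 minus each array's 75th percentile. Left out were 1439 control spots and 40 features with an outlier flag; 0 spots were saturated. Features well above background on at least 3 of 6 arrays were kept, 41006 of 61537. Accessions without version were matched to RefSeq (GRCr8), naming 28206 features (45.8%). The brightest feature stood for a gene, giving 29938 genes, 12155 of them with a symbol.

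Groups were compared by two-sided limma fits (version 3.58.1, lmFit with eBayes, R 4.3.3), with Benjamini-Hochberg adjustment over all genes and a threshold of 0.05. The fit was run on simulated data with independent noise and a treatment effect. The simulation held no slide effect and no deviating array, so it does not show how the fit behaves under these. Alternatives were other scalings and backgrounds (normexp, offset 50, on the median spot intensity), the deposited ratios, other filters, the mean of features, leaving out each animal, blocking by replicate number or by slide, and slide 2 by itself. The 10 genes and the lists were chosen with earlier results of these data known. Genes named from a list were those whose groups did not overlap, up to 4 in each direction by size, together with a few chosen for their role (Igf1, Pim1, the other Socs genes), and the 5 genes nearest to Cish in pattern; the same for Bcl6 was added after its values were seen. Some genes that this rule names are left out of the text. The series design calls the animals of a group biological replicates.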

Additional observations from a re-analysis of the deposited data

How the results depend on the processing

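Over 18 alternatives the difference of Cish lay between -2.05 and -1.71 and that of Bcl6 between 1.80 and 3.20, so that neither changed sign. Most larger shifts were seen in the settings that take slide into account. There slide, scan day and the animal of vehicle 3 cannot be told apart. With slide as a fixed block, and equally on slide 2 alone, the differences were 3.20 for Bcl6, -0.64 for Socs2, 0.37 for Socs3, -0.96 for Stat5b, -0.94 for Prlr, -0.20 for Jak2 and 0.13 for the median of the STAT5 targets. With slide as a random block they were -0.47 for Socs2, -0.73 for Stat5b and 0.12 for the STAT5 targets. Ghr stood at -0.097 with normexp, and the median of the STAT5 targets at -0.020 with no filter on dim features. These slide settings rest on vehicle 3 as the single vehicle array of slide 2, whose spread is assumed to be that of the treated animals, and the cause of the shifts was not tested. Leaving out 1 animal gave -1.99 to -1.71 for Cish, 1.80 to 2.60 for Bcl6, -0.30 to 0.059 for Socs2, -0.086 to 0.21 for Socs3, -0.53 to 0.0056 for Stat5b, -0.074 to 0.12 for Jak2 and -0.057 to 0.090 for the STAT5 targets; vehicle 3 set the end of the range at 1.80, 0.059, -0.086, 0.0056, 0.12 and -0.057. The number of genes called by limma was 0 in the reported fit, 1 with quantile normalization, 2 with normexp, 8 with an intensity trend and 1 with slide as a random block, and 0 to 814 without 1 animal, with 814 without vehicle 3, where slide and treatment cannot be told apart. Genes with groups that did not overlap numbered 6446, 21733 on slide 2 alone and 8276 to 13093 without 1 animal, where fewer arrays have to lie apart. Same-numbered animals did not deviate together (correlations of deviations over genes of -0.030, 0.011 and -0.074 for numbers 1, 2 and 3); with the replicate number as a block the differences stay as they were by construction, and 0 genes were called. Signals limit Socs1, which was not measured when all 6 arrays had to be well above background.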
